A study of Mus musculus with 35 samples.

Results

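The immediate early response genes followed here are Fos, Fosb, Jun, Junb, Atf3, Egr1, Klf6, Ier2, Ier3 and Zfp36, 10 of the 23538 genes counted in single cells of the mouse small intestine. They were chosen by name, with earlier results of these data known, and all 10 passed the filter on low counts in each comparison. The method was CEL-seq: single cells sit in separate wells of a plate, and the molecular barcodes on their polyadenylated RNA are counted for every gene. Every cell came from a mouse on the C57BL/6 background. Reg4-positive cells were sorted from a culture whose donor mouse was Reg4-dsRed-knock-in (2 passages). Lgr5-positive cells were sorted from organoids of an Lgr5-GFP-DTR mouse (1 library). Whole organoid cells were taken at random from organoids of a wild-type mouse (2 passages). YFP cells were sorted from intestine 5 days after an Lgr5-driven Cre had switched on YFP from the Rosa26 promoter (5 plates), so they are stem cells labelled then and their descendants, and Lgr5-EGFP cells were sorted from intestine by the reporter itself (2 plates). Organoids, epithelial cultures grown from crypts in gel, were kept with EGF, R-spondin and Noggin and dissociated with TrypLE, whereas intestine was taken apart with EDTA and trypsin. Culture, dissociation and genotype therefore cannot be told apart in any comparison of organoid with intestine. The sort, the mouse and the culture cannot be told apart between organoid groups either, since each of them came from 1 mouse. The labels state neither the mice's ages nor how many mice the plates from intestine came from.

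Immediate early genes are transcribed within minutes of a growth factor, a stress or a loss of contact, without new protein synthesis, and their short-lived mRNAs and proteins then switch on later genes. Signals through the Ras and ERK kinases reach them by serum response factor and its partners, and signals through cAMP or stress kinases by factors of the CREB and ATF family. Fos and Fosb proteins pair with Jun and Junb proteins to form the transcription factor AP-1. In the intestinal epithelium these genes are known to respond to EGF, to injury and to the preparation of single cells.

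The regulatory sequence just upstream is shown for 4 members, Fos, Jun, Atf3 and Zfp36, because their windows hold the letters of response elements. Promoter windows of 300 bases were read from RefSeq on GRCm38.p6 for 8 of the 10 members, running from 250 bases before to 50 bases after the start. Ier2 was not matched, and Egr1 was left out, so the letters found among the members say nothing about either gene. In GENCODE M21 on GRCm38 the genes are protein-coding, with 4 exons for Fos on chromosome 12, 1 exon for Jun on chromosome 4, 4 exons for Atf3 on chromosome 1 and 2 exons for Zfp36 on chromosome 7. There the minus-strand genes Atf3 and Zfp36 begin at 191218039 and 28380253, upstream of their windows. The starts used for these 2 windows are therefore internal to the annotated genes. Capitals mark a CArG box, the element of serum response factor, in Zfp36, the letters TGACGT in Fos and Atf3, and the letters TGACATCA in Jun. Each is printed 5′ to 3′ on the strand of its gene.
Fos (chr12:85473640-85473939, plus strand): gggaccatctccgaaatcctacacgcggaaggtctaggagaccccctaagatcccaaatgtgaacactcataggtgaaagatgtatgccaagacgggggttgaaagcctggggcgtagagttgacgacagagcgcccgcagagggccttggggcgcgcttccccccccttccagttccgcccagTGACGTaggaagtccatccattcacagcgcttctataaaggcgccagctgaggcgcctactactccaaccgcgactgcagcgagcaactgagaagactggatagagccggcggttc
Jun (chr4:95052173-95052472, minus strand): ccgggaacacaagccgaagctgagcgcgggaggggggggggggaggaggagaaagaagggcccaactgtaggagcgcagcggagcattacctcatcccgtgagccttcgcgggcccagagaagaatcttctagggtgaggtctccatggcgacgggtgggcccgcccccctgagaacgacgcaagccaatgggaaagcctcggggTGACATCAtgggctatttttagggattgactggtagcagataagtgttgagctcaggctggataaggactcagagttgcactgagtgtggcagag
Atf3 (chr1:191183284-191183583, minus strand): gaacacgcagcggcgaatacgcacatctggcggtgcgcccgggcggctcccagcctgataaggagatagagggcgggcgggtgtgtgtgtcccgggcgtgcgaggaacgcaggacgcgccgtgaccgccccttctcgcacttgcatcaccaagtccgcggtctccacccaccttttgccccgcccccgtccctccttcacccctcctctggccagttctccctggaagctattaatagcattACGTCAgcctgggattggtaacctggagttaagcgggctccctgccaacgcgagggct
Zfp36 (chr7:28379179-28379478, minus strand): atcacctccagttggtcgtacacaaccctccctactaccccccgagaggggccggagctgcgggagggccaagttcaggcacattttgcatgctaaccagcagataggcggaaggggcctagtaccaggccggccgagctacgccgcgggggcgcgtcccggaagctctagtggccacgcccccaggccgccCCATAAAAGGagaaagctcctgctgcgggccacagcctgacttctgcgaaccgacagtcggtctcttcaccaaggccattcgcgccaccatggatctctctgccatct
Counting the start as 0, TGACGT began at -66 in Fos and at -8 in Atf3, where it lies on the opposite strand, TGACATCA at -45 in Jun and the CArG box at -58 in Zfp36. Both strands of all 32851 windows in the table were searched. The CArG box was found in 1.63% of them, TGACGT in 7.51% and TGACATCA in 3.62%. TGACATCA was also present in the Klf6 window. TATAAA, held by 13.6% of windows, was present in Fos and Junb. The whole cAMP response element TGACGTCA, which contains TGACGT and is held by 1.79% of windows, and the AP-1 letters TGANTCA, held by 7.81%, were in none of the 8. TGACGT and TGACATCA were added after the windows had been read. These are matches of letters alone.

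Wells with at least 1500 gene counts were kept, which left 1209 of 1680, between 35 and 276 per library, with 287001 to 2860636 counts per library. The epithelial genes Epcam and Krt8 were at 553 CPM or more in every library, while the leukocyte gene Ptprc was at 0 in 10 of the 12. Lgr5 was at 251 CPM in the Lgr5-positive organoid library, 29.9 and 62.8 in whole organoid, 47.7 to 96.3 in YFP and 112 and 147 in Lgr5-EGFP libraries. Reg4 was at 2603 and 7487 CPM in Reg4-positive and 1486 and 106 in whole organoid libraries. CPM are counts scaled to a common library total after the TMM correction, which allows for genes that dominate a library. In Reg4-positive replicate 2, 3 wells had more than 100000 counts each, the largest 188892 of the library's 1076558. Of its 81 kept wells, 8 left unnamed in the clustering further on held 171 of 295 Fos and 113 of 167 Jun counts. They held 39 of 86 Junb and 30 of 69 Klf6 counts. Fos was at 288 CPM in them, 320 in its Paneth-like and 214 in its enteroendocrine-like wells. CPM of this library, and Reg4-positive means and SDs, thus give much weight to a few large wells. In whole organoid replicate 2, plate III stood above plates I, II and IV in the levels of the members other than Ier2 and Ier3. On plates I to IV Ier2 was at 689, 465, 332 and 242 CPM and Ier3 at 65.6, 77.5, 62.3 and 26.9 CPM. Klf6 had 1 count on plate I and 1 on plate II. The count of members called in each comparison with whole organoid is also given without plate III. For Lgr5-positive organoid cells the table was found by its name alone. Replicates were passages of 1 culture or plates of 1 kind of sort, so p-values measure only the spread between them. In summed libraries, fewer induced cells and less RNA per cell cannot be told apart. Shares of wells are given further on.

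Among the AP-1 genes, Fos ranged from 18.8 to 1217 CPM between libraries. The 2 Reg4-positive libraries had 1217 and 275 CPM, the Lgr5-positive organoid library 18.8 CPM, and the whole organoid libraries 561 and 1003 CPM. In cells sorted from intestine it was at 203, 288, 312, 319 and 258 CPM in YFP and 190.0 and 178 CPM in Lgr5-EGFP plates. The Lgr5-positive organoid library was lowest by a wide margin, 1 Reg4-positive passage was the highest of all, and the other fell among the YFP plates. Fosb, a close relative of Fos, was at 332 and 23.3 CPM in Reg4-positive libraries, 5.93 CPM in the Lgr5-positive organoid library, 73.2 and 181 CPM in whole organoid, 25.9 to 73.0 CPM in YFP and 37.3 and 40.0 CPM in Lgr5-EGFP libraries. Its Reg4-positive passages differed the most, and its YFP and Lgr5-EGFP plates overlapped.

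Jun and Junb, the partners of Fos proteins, did not share that range. Jun was at 364 and 156 CPM in Reg4-positive libraries, 161 CPM in the Lgr5-positive organoid library and 365 and 521 CPM in whole organoid libraries, and at 257 to 370.4 CPM in YFP and 304 and 334 CPM in Lgr5-EGFP plates. In intestine the YFP plates enclosed both Lgr5-EGFP plates. Junb was at 224 and 80.1 CPM in Reg4-positive libraries, 12.8 CPM in the Lgr5-positive organoid library and 157 and 231 CPM in whole organoid libraries. It was at 63.0 to 106 CPM in YFP and 57.3 and 62.0 CPM in Lgr5-EGFP plates, so these 2 groups nearly touched. Atf3 is a stress-induced member of the ATF and CREB family that often represses transcription. It was at 111 and 3.73 CPM in Reg4-positive and 102 and 180 CPM in whole organoid libraries, and had no count among the 905272 of the Lgr5-positive organoid library, where a count of 0 allows up to 2.96 CPM (3 counts per library). In intestine it was at 70.4 to 143 CPM in YFP and 47.7 and 39.4 CPM in Lgr5-EGFP plates, without overlap.

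Egr1 and Klf6 are zinc finger transcription factors. Egr1 was at 440.35 and 104 CPM in Reg4-positive libraries, 38.5 CPM in the Lgr5-positive organoid library and 354 and 430 CPM in whole organoid libraries, and at 137 to 167 CPM in YFP and 82.4 and 65.8 CPM in Lgr5-EGFP plates. The YFP plates lay within a narrow band above both Lgr5-EGFP plates. Klf6 was at 99.1 and 64.3 CPM in Reg4-positive libraries, 42.5 CPM in the Lgr5-positive organoid library, 133 and 287 CPM in whole organoid, 37.0 to 104 CPM in YFP and 72.9 and 69.0 CPM in Lgr5-EGFP libraries. Whole organoid was highest for Klf6, and YFP plates lay on both sides of the Lgr5-EGFP plates.

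Ier2, Ier3 and Zfp36 are early genes of other kinds. Ier2 encodes a small nuclear protein induced by growth factors. It was at 390 and 223 CPM in Reg4-positive libraries, 139 CPM in the Lgr5-positive organoid library, 238 and 345 CPM in whole organoid, 207 to 264 CPM in YFP and 186 and 196 CPM in Lgr5-EGFP libraries, with Lgr5-positive organoid lowest. Ier3, a regulator of cell survival under stress, was at low levels throughout, at 29.97 and 16.8 CPM in Reg4-positive libraries, 9.88 CPM in the Lgr5-positive organoid library, 55.5 and 55.6 CPM in whole organoid, 14.8 to 41.1 CPM in YFP and 11.3 and 9.03 CPM in Lgr5-EGFP libraries. Zfp36 encodes tristetraprolin, which binds AU-rich elements and speeds the decay of mRNAs, those of early genes among them. It was at 196 and 59.6 CPM in Reg4-positive libraries, 21.7 CPM in the Lgr5-positive organoid library, 252 and 396 CPM in whole organoid, 70.4 to 153 CPM in YFP and 77.2 and 60.7 CPM in Lgr5-EGFP libraries. Lgr5-positive organoid was the lowest of the 12 libraries for every member except Jun, Klf6 and Ier3, for which Reg4-positive replicate 2, YFP replicate 4 and Lgr5-EGFP replicate 2 were lower.

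**Figure D1:**
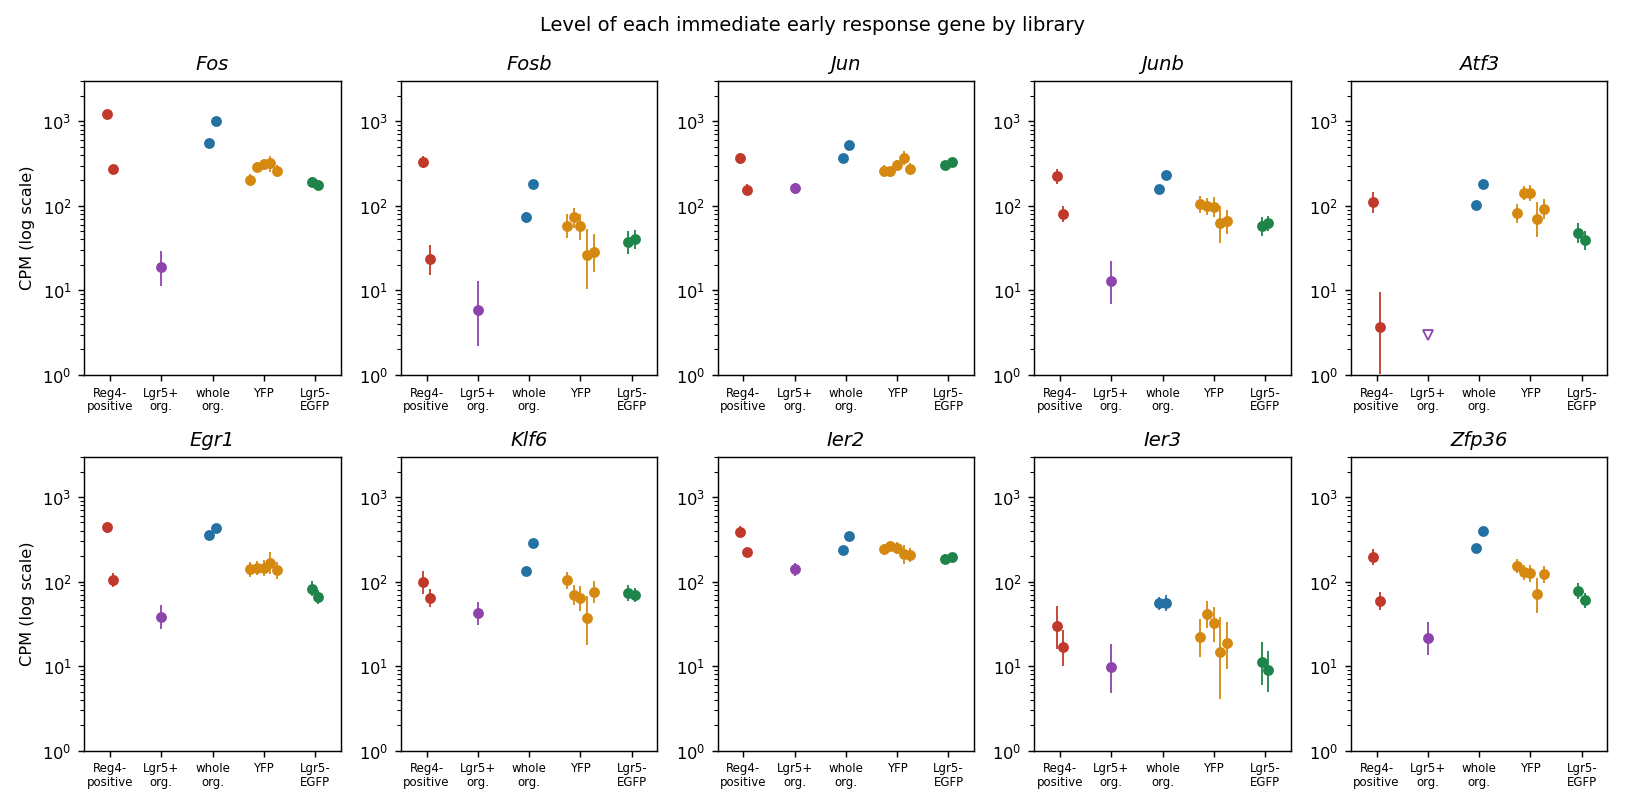
Level of each of the 10 genes in every library, in CPM on a log scale, with groups from left to right Reg4-positive, Lgr5-positive organoid, whole organoid, YFP and Lgr5-EGFP. Points are libraries, bars are exact 95% Poisson intervals for counting error only, and the open triangle for Atf3 marks the 2.96 CPM that a count of 0 allows. The Lgr5-positive organoid point lies far below whole organoid for Fos, 18.8 against 561 and 1003 CPM, and nearer to it for Ier2.

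The first comparison set Lgr5-positive organoid cells, stem cells in culture, against whole organoid cells. Fos fell to 18.8 CPM in the Lgr5-positive library, against 782 ± 313 CPM in whole organoid (SD, n = 2), a log2 fold change of -5.37 (SE 1.09, edgeR adjusted p = 0.0393). Junb fell by 3.91 on the log2 scale (SE 0.77, edgeR adjusted p = 0.0376), Zfp36 by 3.89 (SE 0.81, edgeR adjusted p = 0.0435) and Ier3 fell by 2.48 (SE 0.52, edgeR adjusted p = 0.0450). Thus 4 of 10 members were called lower and 0 higher, beside 2.97% of all 10522 genes tested called lower and 0.656% higher. Estimates were below 0 for all 10, with a median of -3.62 against -0.03 over all genes, also with Atf3 at its bound. Atf3 was at least 47.5-fold lower by the mean of whole organoid and did not pass (edgeR adjusted p = 0.0994). Egr1, at 38.5 CPM against 391.8 ± 53.3, Klf6, at 42.5 CPM against 210 ± 109, and Jun, at 161 CPM against 443 ± 110, did not pass either. The 1 library has no replicate of its own, and its spread was taken to equal that of whole organoid and Reg4-positive cells.

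Other early response genes were read from a list of 56, also chosen with earlier results of these data known, of which 51 were tested. Of these 5 fell in Lgr5-positive organoid cells and 0 rose, with a median log2 fold change of -1.60. Nfkbiz, an inhibitor-like cofactor of NF-κB, was at 15.8 CPM against 78.0 ± 11.8 (SD, n = 2), and Sertad1 at 15.8 CPM against 71.2 ± 2.75. Gadd45b, a stress sensor gene, was at 2.96 CPM against 46.2 ± 3.05, the kinase gene Plk3 at 2.96 CPM against 41.8 ± 14.0 and the small Maf factor gene Mafk at 4.94 CPM against 33.3 ± 0.81. Of 11 heat shock genes 0 were called by edgeR and 0 by DESeq2, with 1 at an unadjusted p under 0.05 (median log2 fold change -0.05). Of 18 genes for the kinases and factors upstream of the members, 0 were called by edgeR and 2 by DESeq2, with 5 at an unadjusted p under 0.05 (median -0.28). The groups also differed in cell makeup: the summed level of 12 enterocyte markers was 924 CPM in the Lgr5-positive library, against 42692 and 19814 CPM in whole organoid. Its part in the result was not tested. Counted calls among the members were 0 when libraries were scaled by totals alone, with wells of at least 3000 counts, and without the 3 largest Reg4-positive wells, which enter the shared fit. They were 6 without plate III of whole organoid replicate 2 (the 4 above, Atf3 and Egr1). In 1 fit over all 5 groups they were 10, and with no filter on low counts 9. Calls over all genes moved with the setting too. They were 382 of 10522 as reported, 546 of 10227 without plate III, 1738 of 10632 in that fit and 1372 of 15741 unfiltered. By totals alone there were 245 of 10522, with wells of at least 3000 counts 289 of 10471, and without the largest wells 143 of 10275.

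Reg4-positive cells, which include secretory cells of the organoid, were compared with whole organoid cells next. None of the 10 members was called by edgeR or DESeq2, beside 4.07% of genes called lower and 2.39% higher, and 3 of the 10 had an unadjusted p under 0.05, as had 2316 of the 10522 genes tested. Those 3 had lower estimates. Klf6 was at 81.7 ± 24.6 CPM against 210 ± 109, Ier3 at 23.4 ± 9.34 against 55.5 ± 0.06 and Zfp36 at 128 ± 96.4 against 324 ± 101.3 (SD, n = 2 each), with log2 fold changes of -1.38 (SE 0.44), -1.33 (SE 0.38) and -1.39 (SE 0.54). Ier3 came nearest to the threshold (edgeR adjusted p = 0.0801). For these 3 the groups did not overlap, and for Jun they all but touched, at 364.3 CPM in Reg4-positive replicate 1 and 365.1 CPM in whole organoid replicate 1. How many of all genes lie apart with 2 libraries in each group was not counted. Fos was at 746 ± 666 CPM against 782 ± 313, and the SD of the Reg4-positive pair shows how far its passages lay apart. The comparison shares its whole organoid libraries with the preceding one.

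Of 51 other early response genes tested, 4 fell in Reg4-positive cells and 0 rose (median log2 fold change -0.31). Hbegf, an EGF receptor ligand, was at 22.4 ± 17.2 CPM against 178 ± 85.5 (SD, n = 2 each; log2 fold change -3.17 with SE 0.60, adjusted p = 0.0239 by edgeR). Plk3 was at 3.24 ± 1.94 CPM against 41.8 ± 14.0, Nfkbiz at 16.9 ± 7.66 against 78.0 ± 11.8, and Ier5, a relative of Ier2, at 46.1 ± 3.28 against 129 ± 28.9. Of 11 heat shock genes 0 were called by edgeR and 0 by DESeq2, with 1 at an unadjusted p under 0.05, and of 18 upstream genes 0 by edgeR and 1 by DESeq2, with 5 at an unadjusted p under 0.05. Members called lower were 4 with no filter on low counts (Atf3, Ier3, Klf6 and Zfp36) and 3 in 1 fit over all 5 groups (Ier3, Klf6 and Zfp36). They were 0 without plate III of whole organoid replicate 2, where 877 of 10227 genes were called over all. Leaving out a replicate of either group leaves 1 library in it, so calls are not counted there.

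Whole organoid cells were compared with YFP cells, both of them mixtures of stem cells and descendants, in culture and in intestine. Egr1 was at 391.8 ± 53.3 CPM in whole organoid (SD, n = 2) and 147 ± 11.6 CPM in YFP libraries (SD, n = 5), a log2 fold change of 1.42 (SE 0.34, edgeR adjusted p = 0.00796). Fos rose by 1.51 on the log2 scale (SE 0.38, edgeR adjusted p = 0.0109), at 782 ± 313 against 276 ± 46.9 CPM. Klf6 rose by 1.51 (SE 0.30), Zfp36 by 1.40 (SE 0.32), Junb by 1.13 (SE 0.30) and Ier3 by 1.03 (SE 0.29), with edgeR adjusted p between 0.00244 and 0.0190. In each of these 6, picked as called, the whole organoid libraries lay above all 5 YFP plates. How many of all genes do so was not counted. So 6 of 10 members rose and 0 fell, beside 13.4% of the 10632 genes tested called higher and 9.45% lower. Fosb, at 127 ± 76.3 against 48.7 ± 20.5 CPM, Jun, at 443 ± 110 against 294 ± 46.5, Atf3, at 141 ± 55.1 against 106 ± 34.2, and Ier2, at 291 ± 75.3 against 234 ± 24.4, did not pass. All 10 estimates were above 0 (median 1.21, against 0.04 over all genes). Without plate III of whole organoid replicate 2, 2 members were called (Ier3 and Zfp36) and the estimates for Jun and Atf3 were -0.14 and -0.48. With each well thinned to 1500 counts, 2 were called (Egr1 and Fos). Leaving out either whole organoid replicate leaves 1 library in the group, so calls are not counted there. The groups also differed in cell makeup: summed enterocyte markers were at 42692 and 19814 CPM in whole organoid and 1515 to 7398 CPM in YFP libraries, and summed Paneth markers at 399 and 5712 CPM in whole organoid and 13648 to 64890 CPM in YFP libraries. The part of this in the result was not tested.

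The other early response list moved mostly the same way, with 21 of 51 genes higher and 2 lower in whole organoid (median log2 fold change 0.76). The ones at the highest level among those that rose were Btg1, Hbegf, Phlda1, Btg2, Gadd45a and Cited2. Hbegf was at 178 ± 85.5 CPM in whole organoid and 41.2 ± 9.11 CPM in YFP libraries (log2 fold change 2.06 with SE 0.30, adjusted p = 0.000305 by edgeR), and the anti-proliferative gene Btg1 at 265 ± 41.1 against 134 ± 20.6 CPM. Btg2, a relative of Btg1, was at 158 ± 18.0 against 78.2 ± 17.5 CPM. Myc, the growth-promoting transcription factor gene, fell to 47.0 ± 26.9 CPM, against 89.0 ± 17.5, and Zfp36l2, a relative of Zfp36, to 176 ± 21.9 CPM, against 268 ± 21.6. Among 17 upstream genes, Map2k1, Map2k2, Mapk8, Srf and Rps6ka1 rose and Mapk9 fell. Map2k1, which encodes the ERK kinase MEK1, was at 131 ± 17.2 against 42.6 ± 8.30 CPM (a log2 change of 1.61 with SE 0.19, adjusted p = 4.36e-05 by edgeR), and Srf, the gene of serum response factor, at 59.0 ± 14.5 against 29.3 ± 8.58 CPM. Heat shock genes did not follow: of 12 tested, 0 rose and 2 fell, the inducible Hspa1a at 1.90 ± 1.01 against 103 ± 29.4 CPM and Hspa1b at 24.9 ± 9.11 against 111 ± 31.6 CPM. Hspa1a and Hspa1b are near-identical copies, so their counts as single genes are uncertain.

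YFP cells were compared with Lgr5-EGFP cells, that is, stem cells and their descendants with cells that express the stem cell reporter. Atf3 rose to 106 ± 34.2 CPM in YFP plates (SD, n = 5), against 43.5 ± 5.90 CPM in Lgr5-EGFP plates (SD, n = 2; log2 fold change 1.34 with SE 0.25, adjusted p = 0.00163 by edgeR). Egr1 was at 147 ± 11.6 against 74.1 ± 11.7 CPM (a log2 change of 0.99 with SE 0.16, adjusted p = 0.000497 by edgeR) and Ier3 at 25.8 ± 10.7 against 10.2 ± 1.59 CPM (a log2 change of 1.43 with SE 0.38, adjusted p = 0.0139 by edgeR). Zfp36, Fos and Junb rose by 0.86, 0.58 and 0.58 on the log2 scale (SE 0.20, 0.19 and 0.19, edgeR adjusted p between 0.00694 and 0.0409). This makes 6 of 10 higher and 0 lower, beside 14.7% of the 9065 genes tested called higher and 11% lower. In 5 of the 6, all but Zfp36, every YFP plate lay above both Lgr5-EGFP plates. These 6 had been picked as called, and how many of all genes lie apart in this way was not counted. Jun was at 294 ± 46.5 against 319 ± 20.6 CPM and did not pass, nor did Fosb, Klf6 and Ier2. Scaled by totals alone, which lowers the median over all genes to -0.44, Atf3, Egr1 and Ier3 stayed higher and Jun was called lower (log2 fold change -0.57, edgeR adjusted p = 0.0120). With wells thinned to 1500 counts 0 members were called, and in 1 fit over all 5 groups 1 (Ier3). Without YFP replicate 1 there were 5, and without YFP replicate 2 or replicate 3 there were 4. Over all genes these 3 settings gave 1977 of 8923, 1877 of 8774 and 2021 of 9076 calls, beside 2330 of 9065 as reported. Leaving out either Lgr5-EGFP replicate leaves 1 plate in the group, so calls are not counted there.

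Other early response genes were split here, with 10 of 41 higher and 5 lower in YFP cells (median log2 fold change 0.31). Among those higher, Ier5 was at 102 ± 14.6 CPM in YFP and 35.6 ± 1.12 CPM in Lgr5-EGFP plates (log2 fold change 1.54 with SE 0.17, adjusted p = 5.30e-05 by edgeR), Jund, a Jun relative, at 228 ± 54.4 against 141 ± 20.97 CPM, and Nfkbia, the NF-κB inhibitor gene, at 145 ± 29.8 against 83.0 ± 7.81 CPM. Mcl1, Gadd45a and Dusp1 were also among the 6 at the highest level. Among those lower, the kinase gene Pim1 was at 8.15 ± 3.45 against 34.9 ± 6.37 CPM, the cytokine signalling inhibitor gene Socs3 at 11.5 ± 3.24 against 36.4 ± 2.39 CPM and Cebpd at 17.9 ± 7.49 against 50.8 ± 0.60 CPM. Phlda1 and Pim3 were the other two. Of 12 heat shock genes 4 rose (Hspe1, Hspd1, Hspa1b and Hspa1a) and 2 fell (Hsp90aa1 and Hsph1). Summed immune markers were at 21.9 to 88.9 CPM in YFP and 0.87 and 1.94 CPM in Lgr5-EGFP plates, with Ptprc at 0 in all of them. Summed enterocyte markers were at 1515 to 7398 CPM in YFP and 450.2 and 398 CPM in Lgr5-EGFP plates, and the part of neither in the result was tested.

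Lgr5-positive cells from organoids were last compared with Lgr5-EGFP cells from intestine. None of the 10 members was called by edgeR, beside 0.677% of genes called lower and 0.762% higher, while 5 had an unadjusted p under 0.05, as had 1276 of the 10632 genes tested. Fos, at 18.8 CPM against 184 ± 8.38 (SD, n = 2), just missed the threshold (log2 fold change -3.29 with SE 0.77, adjusted p = 0.0504 by edgeR). Junb was at 12.8 CPM against 59.6 ± 3.32 and Zfp36 at 21.7 CPM against 68.9 ± 11.7. Atf3 was at least 14.7-fold lower by the mean of Lgr5-EGFP plates. Ier3 stood at 9.88 CPM against 10.2 ± 1.59, and all 10 estimates were below 0. DESeq2 called Fos and Junb lower, scaling by totals alone called Fos, the compared groups alone gave 6 lower calls, and no filter on low counts gave 5. Calls over all genes were 153 of 10632 as reported, 185 with DESeq2 and 143 by totals alone. With the compared groups alone they were 615 of 9739, and with no filter 472 of 16597. Of 51 other early response genes, Phlda1 rose to 489 CPM, against 151 ± 19.8 CPM in Lgr5-EGFP plates, and 2 fell, Socs3 (5.93 CPM against 36.4 ± 2.39) and Sgk1, a kinase gene, with no count against 10.7 ± 4.06 CPM. Hspa1a and Hspa1b were the heat shock genes that fell, at 0.99 and 3.95 CPM against 40.1 ± 12.6 and 66.2 ± 3.28 CPM.

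Levels of libraries hide how the counts were spread over wells. Each kept well was thinned to 1500 gene counts, and a well was called induced when at least 3 of the 10 members had a count. In Reg4-positive libraries 31 of 75 wells (41.3%) and 9 of 81 (11.1%) were induced, in the Lgr5-positive organoid library 0 of 74, and in whole organoid libraries 75 of 276 (27.2%) and 113 of 209 (54.1%). The 0 of 74 allows a share of up to 4.05%. In intestine, 18.8%, 23.1%, 17.6%, 14.3% and 16.2% of YFP wells and 16.0% and 19.0% of Lgr5-EGFP wells were induced, so these plates overlapped. Unthinned, the shares with at least 3 members were 76.0% and 44.4% in Reg4-positive libraries, 55.4% in the Lgr5-positive organoid library, 72.8% and 79.9% in whole organoid, 54.3% to 73.1% in YFP and 69.3% and 77.4% in Lgr5-EGFP libraries. Wells of the Lgr5 sorts were also deeper, with medians of 11905.5 counts in Lgr5-positive organoid and 9543 and 13131.5 in Lgr5-EGFP libraries, against 4608 to 7982 in the other libraries.

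**Figure D2:**
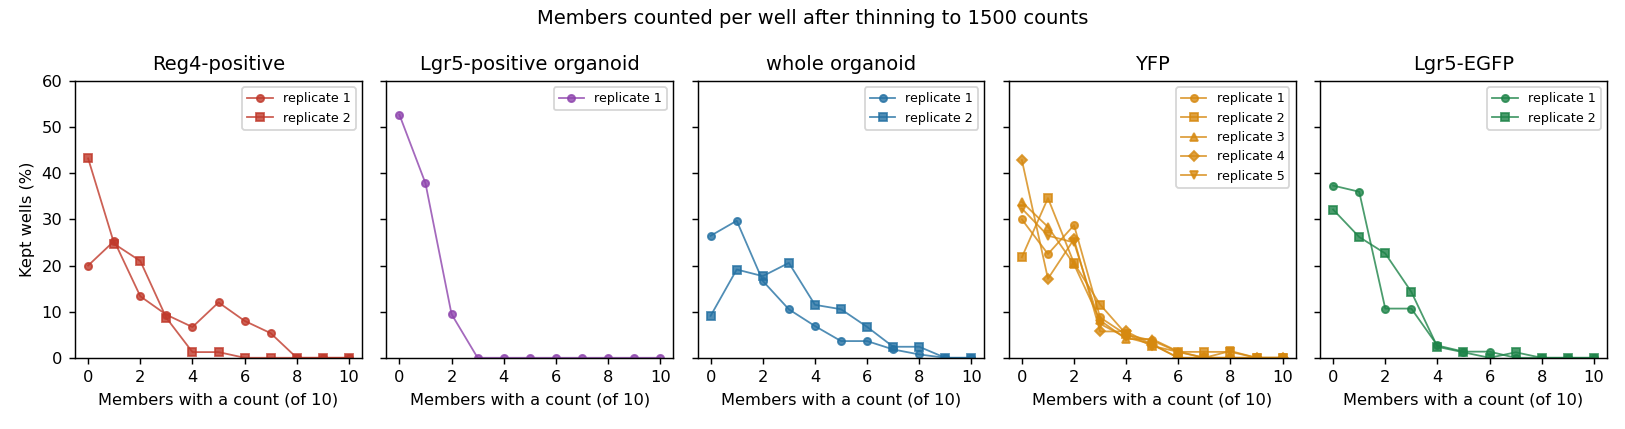
Percent of kept wells by the number of members with a count after thinning to 1500 counts, one panel per group in the order Reg4-positive, Lgr5-positive organoid, whole organoid, YFP and Lgr5-EGFP, one line per replicate. No Lgr5-positive organoid well had more than 2 members, while whole organoid wells reached 8.

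Replicates of 1 organoid group differed widely in this share, and plates from intestine did not. The Reg4-positive share averaged 26.2% ± 21.4, against 40.6% ± 19.0 in whole organoid (SD, n = 2 each), a difference of -14.4 percentage points that was 0.71 without Reg4-positive replicate 2. Whole organoid, at 40.6% ± 19.0 (SD, n = 2), was above YFP, at 18.0% ± 3.303 (SD, n = 5), by 22.6 percentage points. Both whole organoid replicates lay above all 5 YFP plates, and the difference was 16.4 points without plate III of replicate 2 and 9.20 without replicate 2. YFP and Lgr5-EGFP, at 18.0% ± 3.303 (SD, n = 5) and 17.5% ± 2.15 (SD, n = 2), differed by 0.45 points. By plate, whole organoid replicate 1 had 21.1%, 38.7% and 21.6% induced wells and replicate 2 had 38.5%, 46.0%, 74.7% and 36.6%. The labels ask that wells 49 to 96 of a plate numbered 4 be left out as unrelated, without saying of which group. They were read as meaning YFP plate 4, whose table holds 48 wells, but plate IV of whole organoid replicate 2 cannot be told apart from it by the labels' wording. On that plate 13 of 33 kept wells among wells 49 to 96 were induced and 2 of 8 among wells 1 to 48. Without wells 49 to 96 of plate IV the share of induced wells in whole organoid was above that in YFP by 24.0 percentage points, and the number of members called was the same in all 5 comparisons. Plate III of replicate 2 was thus the highest of all plates, with Fos at 1477 CPM against 473 to 558 CPM on the other plates of that replicate, and its summed heat shock level of 7025 CPM compared with 3017, 2611 and 5781 CPM on plates I, II and IV. Its 79 kept wells had 20 with 6 members or more. Whether a plate or its cells set this share was not tested.

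**Figure D3:**
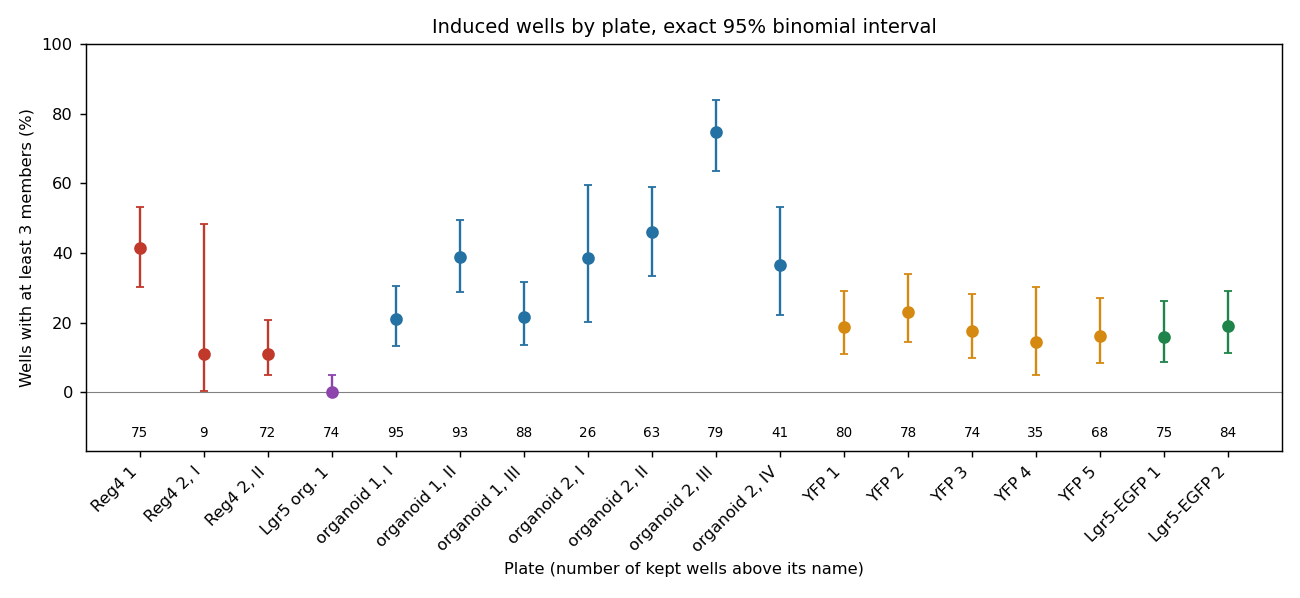
Percent of kept wells with at least 3 of the 10 members after thinning, by plate, with exact 95% binomial intervals that cover counting error only and the number of kept wells under each point. Plate III of whole organoid replicate 2 stands highest at 74.7%, and the Lgr5-positive organoid plate is at 0.

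Member counts were concentrated in part of the wells. The tenth of wells with the highest share of their counts from the members held 22.9% and 13.7% of all member counts in Reg4-positive libraries, 25.9% in Lgr5-positive organoid, 40.0% and 39.0% in whole organoid, 27.4% to 49.2% in YFP and 51.0% and 33.1% in Lgr5-EGFP libraries. Of all gene counts the same wells held 6.99% and 4.76% in Reg4-positive libraries, 9.63% in Lgr5-positive organoid, 10.8% and 14.8% in whole organoid, 7.85% to 23.4% in YFP and 17.4% and 11.5% in Lgr5-EGFP libraries. Since the wells were ranked by the members' share of their counts, the first shares are a description. Before thinning, induced wells had a higher median depth than the other wells in 8 of the 11 libraries with induced wells, and a lower one in Reg4-positive replicate 2, YFP replicate 2 and YFP replicate 5. The medians were 8108 against 7659 counts in whole organoid replicate 1, 5302 against 4116.5 in whole organoid replicate 2, 7044 against 5373.5 in YFP replicate 4, and 11202.5 against 9330 and 16151.5 against 12065.5 in the Lgr5-EGFP plates.

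Wells were also grouped by clustering on genes other than the members, the other early response genes and the heat shock genes, and a cluster was called X-like where at least 3 fixed markers of that cell type were raised in it and more of them were among its 10 leading genes than of any other type. Other clusters were left unnamed, and they include clusters with some markers among their leading genes. In whole organoid replicate 1, 15 of 21 enteroendocrine-like wells, of the hormone-producing lineage, were induced (71.4%, exact 95% binomial interval 47.8% to 88.7%), against 25 of 152 enterocyte-like wells (16.4%, 10.9% to 23.3%) and 34 of 100 unnamed wells (34.0%). The order was the same on each plate of that replicate, with 5, 6 and 4 of 7 enteroendocrine-like wells on plates I, II and III and 4 of 54, 14 of 47 and 7 of 51 enterocyte-like wells. Summed over these wells Fos was at 2070 CPM in enteroendocrine-like and 274 CPM in enterocyte-like wells, Egr1 at 1170 against 117 CPM and Jun at 1044 against 166 CPM, whereas Ier3 was at 50.5 against 34.5 CPM. In replicate 2 the classes were less unlike, with 5 of 5 enteroendocrine-like, 7 of 7 goblet-like, 3 of 3 Paneth-like and 19 of 31 enterocyte-like wells induced, and 17 of the last 19 came from plate III. The summed level of 14 enteroendocrine markers was only 39.2 CPM in replicate 2, against 2855 CPM in replicate 1. Clusters are a description here, since wells of 1 library are not replicates.

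Enteroendocrine-like wells were not uniform. A cluster led by Neurog3, the factor that starts endocrine differentiation, had 18 of 23 wells induced (78.3%), and 18 of those 23 wells came from whole organoid replicate 1, with 13 induced. That cluster had 1 enteroendocrine marker among its 10 leading genes. A cluster led by the hormone genes Cck, Ghrl and Tac1 had 8 of 44 (18.2%) and a cluster led by Afp and Reg4 had 3 of 17 (17.6%). Most wells of these 2 came from Reg4-positive replicate 2, so the library and the cluster cannot be told apart. Enterocyte-like wells varied as much: a cluster led by Reg3a and Reg3b had 1 of 34 induced wells, a cluster led by Apoa1 and Apoa4 had 14 of 62, one led by Reg1 and Cyp2c29 had 18 of 74, and one led by Ctrb1 and Areg, with 12 of its wells from whole organoid replicate 2, had 11 of 15. Among Reg4-positive wells, Paneth-like ones, from antimicrobial cells of the crypt base, had 19 of 40 induced in replicate 1 and 3 of 22 in replicate 2, and enteroendocrine-like ones had 4 of 7 in replicate 1 and 5 of 50 in replicate 2. The gap between those passages was therefore present within both classes. Goblet-like wells of replicate 1 had 7 of 19. In the Lgr5-positive organoid library 0 of 40 cycling-like and 0 of 29 stem-like wells were induced.

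**Figure D4:**
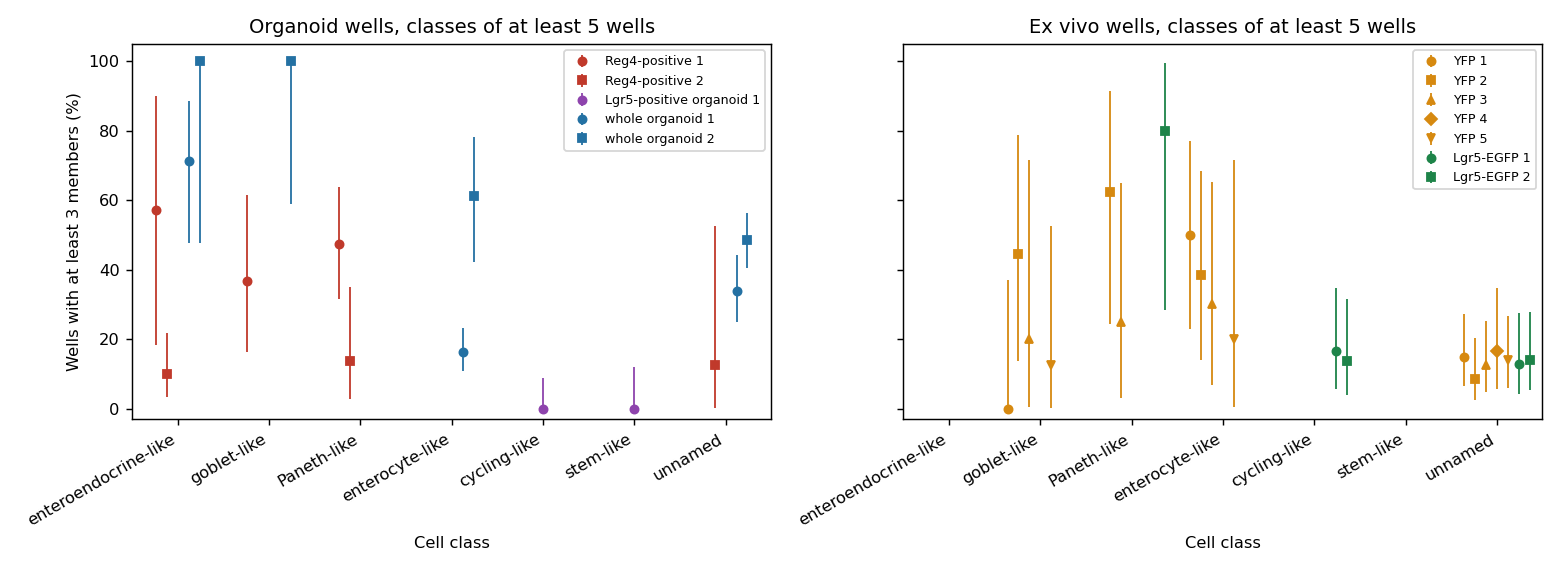
Percent of induced wells by cell class in organoid wells (left) and wells from intestine (right), for classes of at least 5 wells in a replicate, with exact 95% binomial intervals that cover counting error only. In whole organoid replicate 1 the enteroendocrine-like wells are at 71.4% and the enterocyte-like wells at 16.4%.

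Among wells from intestine, 13 of 29 Paneth-like wells (44.8%, exact 95% binomial interval 26.4% to 64.3%) and 16 of 44 enterocyte-like wells (36.4%, 22.4% to 52.2%) were induced. All 44 enterocyte-like wells were YFP wells, with 7 of 14, 5 of 13, 3 of 10, 0 of 2 and 1 of 5 induced in plates 1 to 5. Unnamed YFP wells of those plates had 8 of 54, 4 of 47, 6 of 48, 5 of 30 and 7 of 50 induced wells. The enterocyte-like share was above the unnamed share in 4 of 5 plates. Unnamed wells from intestine include a cluster of 84 wells led by Ube2c, Stmn1, Ccna2 and Cdk1, genes of dividing cells, of which 12 were induced. Paneth-like wells had 0 of 1, 5 of 8, 2 of 8, 0 of 2 and 1 of 3 induced in YFP plates 1 to 5, and 1 of 2 and 4 of 5 in Lgr5-EGFP plates. Of the Lgr5-EGFP wells in the cycling-like cluster, 5 of 30 and 4 of 29 were induced in the 2 plates. That cluster was led by Top2a but also by Reg3g, Malat1 and Reg3b, with 1 cycling marker among its 10 leading genes. Goblet-like wells were at 6 of 31 in the larger cluster and enteroendocrine-like wells at 3 of 12.

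Members were found in the same wells more often than their shares alone would give. For each pair and library the wells with both genes were divided by the number expected if the genes were independent within each plate, where at least 1 well was expected. The median ratio over pairs was 1.47 and 1.41 in Reg4-positive libraries, 1.64 and 1.17 in whole organoid, 1.35 to 1.70 in YFP and 1.70 and 1.27 in Lgr5-EGFP libraries. In the Lgr5-positive organoid library 1 pair could be read, at 0.44. The same median for 13 heat shock genes was between 1.00 and 1.07 in every library, below that of the members in the 11 libraries other than Lgr5-positive organoid. Heat shock genes were counted in more wells, which leaves their ratios less room to rise. In whole organoid replicate 1, 3 or more of them were expected in 234 of 276 wells, against 73.4 for the members. The lists are therefore not directly comparable. Whole organoid replicate 1 had 73 wells with 0 members, where 38.6 were expected, and 27 wells with 5 or more, where 6.23 were expected. Reg4-positive replicate 1 had 15 and 19 such wells, where 3.38 and 5.05 were expected. The number of induced wells, with 3 members or more, was near its expectation in several libraries. It was 31 in Reg4-positive replicate 1, where 36.4 were expected, and 9 in replicate 2, where 5.65 were expected. In the Lgr5-positive organoid library 39 wells had 0 members, where 40.3 were expected. Its number of induced wells was 0, where 0.85 were expected from the shares of single members alone. In whole organoid there were 75 and 113, where 73.4 and 118 were expected. In YFP plates 1 to 5 there were 15, 18, 13, 5 and 11, where 14.5, 18.1, 10.6, 3.69 and 10.5 were expected, and in Lgr5-EGFP plates 12 and 16, where 6.43 and 11.4 were expected. In Reg4-positive replicate 1, whole organoid replicate 2 and YFP replicate 2, wells with 0 members and with 5 or more thus exceeded expectation while wells with 3 or more did not. All wells had the same number of counts in these ratios.

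The pairs that went together most held Fosb, Atf3, Egr1 and Fos. The median ratio over libraries was 2.37 for Fosb with Atf3 (3 libraries), 2.24 for Fosb with Egr1 (3 libraries), 2.10 for Atf3 with Egr1 (4 libraries) and 2.00 for Fos with Egr1 (10 libraries). Fos with Jun, the classic pair of AP-1, was at 1.65 over 11 libraries, from 0.78 to 2.12. Pairs with Ier3 lay between 0.72, with Fosb (1 library), and 1.29, with Jun (7 libraries), with 1.01 for Fos (6 libraries), 0.97 for Egr1 (3 libraries) and 1.12 for Ier2 (4 libraries). Unthinned levels put Fos and Egr1 first and Ier3 last: Spearman's rho of each member with the sum of the other 9 across wells, averaged over libraries, was 0.53 for Fos, 0.52 for Egr1, 0.50 for Jun, 0.48 for Atf3, 0.46 for Fosb, 0.43 for Junb, 0.38 for Zfp36, 0.29 for Ier2, 0.22 for Klf6 and 0.14 for Ier3. Wells of 1 library share its chemistry and differ in depth. They came from 3 and 4 plates in whole organoid replicates 1 and 2 and from 2 plates in Reg4-positive replicate 2. Differences between plates can therefore enter these values.

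**Figure D5:**
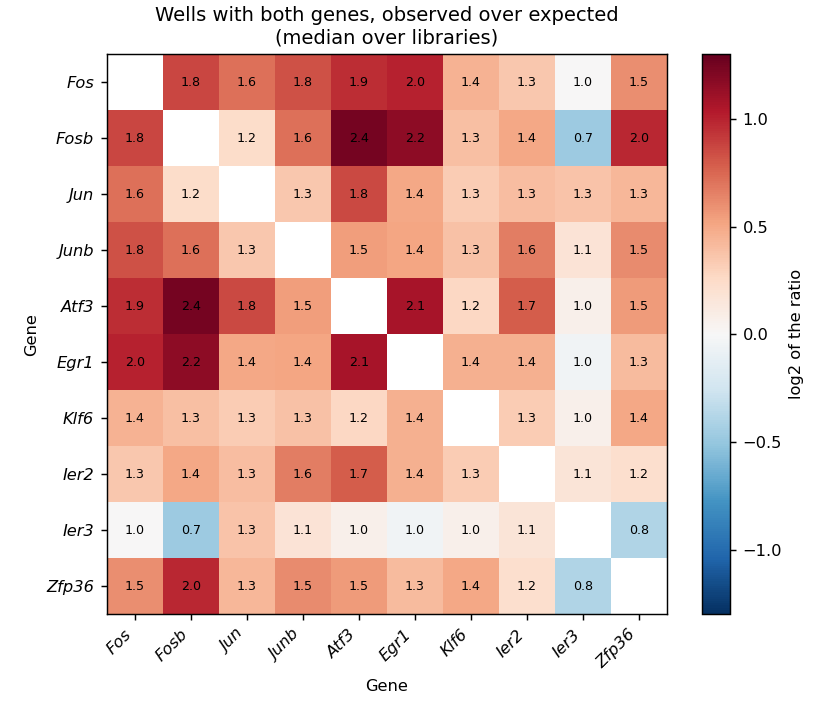
Wells with both genes of a pair, observed over expected within plates, as the median over the libraries in which at least 1 well was expected. Color is the log2 of the ratio and the printed value is the ratio, which reaches 2.37 for Fosb with Atf3 and lies between 0.72 and 1.29 for pairs with Ier3.

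Outside the 10 members, the genes whose level per well was most like theirs were ranked by Spearman's rho with the summed members, averaged over 12 libraries, among 2903 genes counted in at least 20% of wells of each. Among the first 8 were Btg2 (0.35), Jund (0.23), Tob1 (0.20), Pnrc1 (0.20), Phlda1 (0.20), Trib1 (0.19) and Atf4 (0.18), while the median gene was at -0.01. Btg2 and Tob1 belong to 1 family of anti-proliferative genes, and Jund is an AP-1 gene. The rho of Btg2 was above 0 in 12 of 12 libraries, from 0.03 to 0.57, and its mean was 0.17 with thinned wells. Btg2 was at 429 and 130 CPM in Reg4-positive libraries, 49.4 CPM in the Lgr5-positive organoid library, 145 and 171 CPM in whole organoid, 51.9 to 92.8 CPM in YFP and 70.3 CPM in both Lgr5-EGFP libraries, and so was lowest in the library where Fos was lowest. Atf4, at 0.18, was at 0.03 with thinned wells.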

How the data were processed

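The deposited tables hold, per gene and well, estimated counts that the authors corrected for repeated barcodes. With 4-base barcodes and 256 possible ones, undoing that correction gave whole barcode numbers for 3857660 of 3857686 values above 0 (tolerance 1e-06), and 26 were at the ceiling. The aligner was BWA 0.6.2-r126 and the build mm10, per the submitters' processing notes. Lanes of 1 plate are pooled in the deposited tables. Tables were matched to groups by name, and 192 columns in 2 unmatched tables were not used. Spike-in RNA was left out of totals and made up 0.925% to 12.2% of counts. Wells of at least 1500 counts were kept, and 0 kept wells were identical.

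Rounded estimated counts were summed per library and tested with edgeR 4.0.16 (quasi-likelihood, TMM, filterByExpr, Benjamini-Hochberg threshold 0.05) in R 4.3.3. Comparisons within organoids or within intestine were fitted on those groups, and comparisons across them on all 5. DESeq2 1.42.0 was an alternative. The edgeR script was tested on simulated data. For shares, wells were thinned to 1500 counts, and intervals (exact binomial or Poisson, 95%) cover counting error only. Clusters were made with scanpy 1.11.5 and igraph 0.11.9, and doublets were not removed, since wells were meant to hold 1 sorted cell each. The members and lists were chosen with earlier results of these data known. Named list genes are the 6 called in each direction with the highest level, and genes of like pattern the first 8 by rho, of which 1 is not reported here. Same-numbered libraries did not deviate together (r of -0.09, 0.12 and 0.05, and -0.005 and -0.03), so numbers were not used as pairs. Pool-and-split and mixed control libraries were not used here.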

Additional observations from a re-analysis of the deposited data

How the results depend on the processing

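Which members passed the threshold depended on the setting in every comparison, and no cause was tested. Calls over all genes moved with the setting too. For Reg4-positive over whole organoid they were 680 of 10522 as reported. They were 1716 of 15741 with no filter on low counts and 1910 of 10632 in 1 fit over all 5 groups. For YFP over Lgr5-EGFP they were 2330 of 9065, 567 of 2888 with thinned wells and 1599 of 10632 in 1 fit. For whole organoid over YFP they were 2435 of 10632, 699 of 4726 with thinned wells and 2094 of 10449 without plate III. For Lgr5-positive organoid over whole organoid, 4 members were called lower as reported, 10 when all 5 groups were fitted at once, 9 when low counts were not filtered, and 0 with scaling by totals alone, with wells of at least 3000 counts or without wells above 100000 counts, and 7 to 8 when a replicate was left out. For Reg4-positive over whole organoid, 0 became 4 with no filter on low counts and 3 when all 5 groups were fitted at once. For YFP over Lgr5-EGFP, 6 became 0 with wells thinned to 1500 counts and 1 in 1 fit over all 5 groups. Leaving out YFP replicate 2 or replicate 3 gave 4. For whole organoid over YFP, 6 became 2 with wells thinned to 1500 counts and 2 without plate III of whole organoid replicate 2. For Lgr5-positive organoid over Lgr5-EGFP, 0 became 2 with DESeq2, 5 with no filter on low counts, 1 with scaling by totals alone and 6 with the compared groups alone. Leaving out a whole organoid, Reg4-positive or Lgr5-EGFP replicate leaves 1 library in that group, so calls of those fits are not counted. With the replicate number as a block, 0 members were called for Reg4-positive over whole organoid, 6 for YFP over Lgr5-EGFP and 0 for whole organoid over YFP. Over all genes the block gave 418, 2322 and 918 calls in the same order, beside 680, 2330 and 2435 without it. The numbers do not pair the samples, and why the calls changed was not tested.

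Over all settings, 22 of the members' log2 fold changes had the other sign. For Reg4-positive over whole organoid these were Fos with thinned wells (0.30) and without plate III (0.51), Jun and Junb without plate III (0.013 and 0.021), Fosb with the replicate block (-0.22) and Ier2 without wells 49 to 96 of plate IV (-0.023). Leaving out a replicate there gave -1.50 to 0.66 for Fos, -2.43 to 1.41 for Fosb, -1.27 to 0.23 for Junb, -1.90 to 0.19 for Egr1 and -0.38 to 0.44 for Ier2. The values behind these were 0.43 for Fos without whole organoid replicate 2, and -0.08 for Fosb and -0.18 for Ier2 without whole organoid replicate 1. For YFP over Lgr5-EGFP, scaling by totals alone gave -0.013 for Fosb, -0.37 for Klf6 and -0.13 for Ier2, and leaving out a replicate gave -0.11 (without YFP replicate 1) to 0.16 for Klf6. For whole organoid over YFP, Jun (-0.14) and Atf3 (-0.48) changed sign without plate III, and leaving out a whole organoid replicate gave -0.088 (without replicate 2) to 0.73 for Atf3. For Lgr5-positive organoid over Lgr5-EGFP, leaving out a replicate gave -0.16 to 0.14 (without Lgr5-EGFP replicate 1) for Ier3. Scaling by totals alone moved the median of all genes to -0.44 for YFP over Lgr5-EGFP, 0.22 for Lgr5-positive organoid over whole organoid and -0.19 for Lgr5-positive organoid over Lgr5-EGFP. Fosb had no value for YFP over Lgr5-EGFP with thinned wells.

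The difference in the share of induced wells ranged, when a replicate was left out, from -29.5 to 0.71 percentage points for Reg4-positive minus whole organoid, from 9.20 to 36.1 for whole organoid minus YFP, and from -1.08 to 1.97 for YFP minus Lgr5-EGFP, the last being -0.83 without YFP replicate 2 and -9.08 without thinning. Libraries of 35 to 276 wells and members with few counts, Ier3 and Fosb above all, limit what could be detected.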

Other observations

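Fos also took different shares of the summed member counts. It made up 35.8% and 27.3% of them in Reg4-positive libraries, 4.17% in the Lgr5-positive organoid library, 24.5% and 27.6% in whole organoid, 14.8% to 23.6% in YFP and 17.8% and 16.9% in Lgr5-EGFP libraries. Jun made up 35.7% and Ier2 30.9% in the Lgr5-positive organoid library. In the other 11 libraries Jun lay between 10.7% and 31.7% and Ier2 between 9.50% and 22.2%. Jun and Ier2 therefore held most of the few member counts of Lgr5-positive organoid cells. In YFP plates, 11 values with 5 samples each were screened for a plate far from the rest, and 0 were.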
